A study of Sus scrofa with 36 samples.

Results

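The comparison described here sets hippocampal RNA from 24 piglets whose milk replacer held added lactoferrin, at either of 2 doses, against that from 12 control piglets, which together are all 36 samples of the study. The members were taken by their titles: samples labelled 0.6 g/L (12) and 1.2 g/L (12) were pooled as 1 group, and samples on the replacer without added lactoferrin (12) formed the other. All were male Landrace by Large White piglets, 3 days old at the start and sampled at postnatal day 38. The controls also received lactoferrin at the basal level of the replacer, which the labels do not quantify, so the comparison is of added lactoferrin with basal lactoferrin and not with none. Pooling gives a narrower error than either dose alone and averages over the 2 doses, so a pooled difference need not be shared by both.

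Lactoferrin is an iron-binding glycoprotein of milk, tears and neutrophil granules, known for antimicrobial and immune-modulating actions and for delivering sialic acid and iron. The hippocampus forms and retrieves spatial and episodic memory. Its postnatal maturation involves neurotrophins such as BDNF and its receptor TrkB, polysialylated NCAM, myelination, and synapse remodelling in which microglia and complement take part.

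RNA was measured on Affymetrix porcine arrays, 1 array per sample, and every level below is a deposited log2 value, so a difference of 1 is a doubling of signal. The sample labels hold a set code with 5 levels (S1 up to S5) that they do not define. S1 held 2 added-lactoferrin and 2 control samples, S2 held 8 and 2, S3 held 5 and 3, S4 held 6 and 3, and S5 held 3 and 2, and the set code was a block in the fit. Both added-lactoferrin samples of S1 were from the 1.2 g/L diet. After dim probe sets were left out, 18006 of 23999 were tested, and those with exactly 1 gene name covered 6034 genes. The labels do not say whether piglets shared a litter, so p-values measure only the spread between these samples. The hippocampal tissue was RNA from many cell types, in which fewer cells of a type and less RNA per cell cannot be told apart. Neuron genes had a mean level of 10.51 to 11.74 in added-lactoferrin samples and 10.95 to 11.65 in controls, and the astrocyte gene GFAP lay between 12.3 and 13.6 and between 12.3 and 13.2, so the defining markers of brain tissue were present in both groups. The array of 1.2 g/L replicate 2, in S1, stood apart, with the lowest mean correlation with the other arrays (0.961), the lowest neuron mean and the highest oligodendrocyte mean (11.83). Dap, a poly-A spike-in control, was absent in 7 added-lactoferrin and 3 control arrays.

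No probe set differed between added lactoferrin and control after adjustment. In limma with Benjamini-Hochberg adjustment, 0 of 18006 probe sets (0%) passed an adjusted p of 0.05, with 0.841 as the smallest value. An unadjusted p under 0.05 was found for 1009 (5.6%), of which 526 lay higher with added lactoferrin (2.92%) and 483 lower (2.68%). Differences were small: 84.3% of probe sets lay within 0.1 of 0 on the log2 scale, with 49.7% below 0 and 50.3% above it. The 95% interval reached a median of 0.12 to either side of the estimate, and the number of arrays limits this precision. In no probe set did the 24 added-lactoferrin values and the 12 control values fail to overlap.

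**Figure D1:**
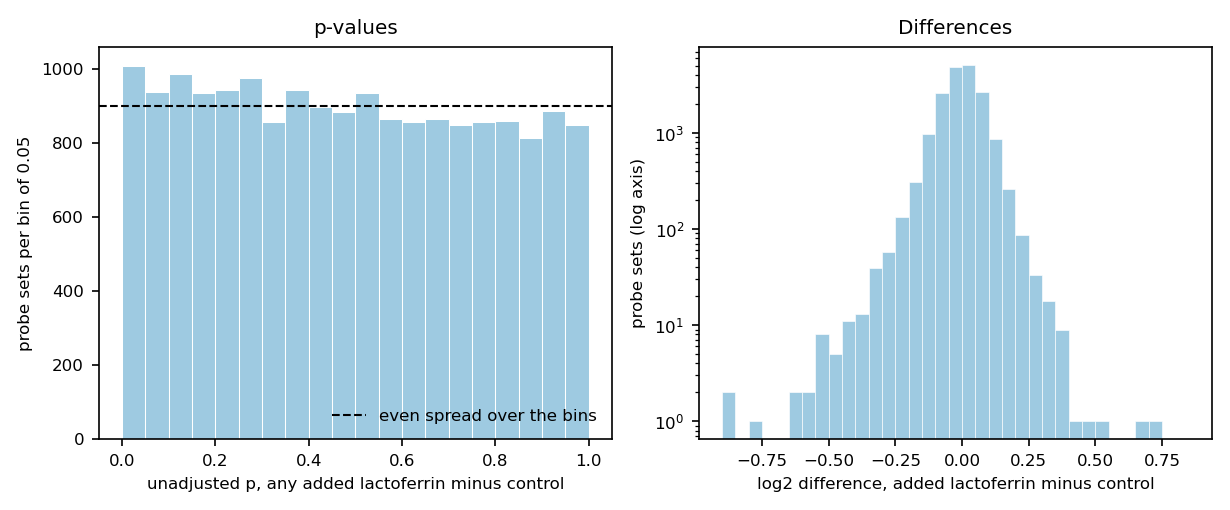
Left, number of probe sets in each bin of 0.05 of the unadjusted p for any added lactoferrin minus control, with a dashed line for an even spread (900.3 per bin). The lowest bin holds 1009 probe sets and the highest 849; right, the log2 differences of the same 18006 probe sets on a logarithmic count axis, from -0.88 to 0.71.

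The genes below therefore describe the upper end of the ranking and not passed tests. The 12 higher and 12 lower named genes with the smallest unadjusted p had p between 0.000919 and 0.00395, and adjusted p = 0.841 in limma for each. Their differences ran from -0.78 for DCN to 0.33 for ACTN2. Each of the 24 had the same sign in every setting tried in which it could be computed, including each of the 36 fits without 1 sample. They were picked for small p in these same samples, so a stable sign follows largely from that choice and is no further evidence. The array held 16 further probe sets of these genes, and 15 of them lay on the same side of 0, 5 with unadjusted p under 0.05. These measure the same RNA samples, so they are not independent of the choice either. Both doses were set against the same 12 controls, so their differences are not independent. They are given side by side in the plot of the 24 genes.

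**Figure D2:**
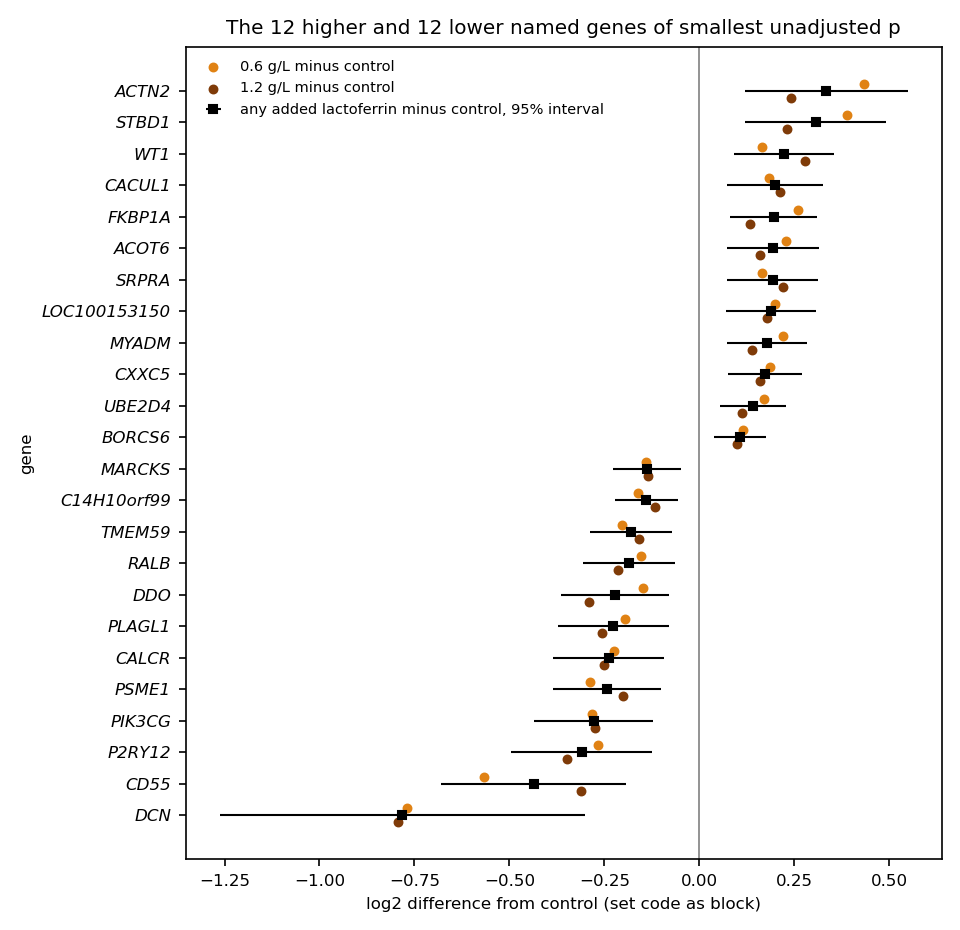
Log2 difference from control of the 12 higher and 12 lower named genes of smallest unadjusted p. Black squares with bars are any added lactoferrin minus control with the 95% interval, and orange and brown points are the 0.6 g/L and 1.2 g/L differences, which share the control samples; ACTN2 is at the top (0.33) and DCN at the bottom (-0.78).

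ACTN2, which had the largest difference of the 12 higher genes, encodes an alpha-actinin that crosslinks actin in dendritic spines. Its level in added-lactoferrin samples had a lowest value of 6.8, a median of 7.8 and a highest of 8.3, against 6.8, 7.6 and 7.9 in controls. The difference was 0.33 ± 0.11 (SE), with unadjusted p = 0.00321 in limma. A second ACTN2 probe set, with a mean of 7.3 against 7.7 for the first, differed by 0.13 (unadjusted p = 0.0320 in limma). In the first probe set, 23 of 24 added-lactoferrin samples lay above the control median. The remaining sample was 1.2 g/L replicate 2, the array that stood apart. By set code the difference of means was -0.55 in S1 and between 0.31 and 0.60 in the other set codes. Without S1, which left 22 added-lactoferrin and 10 control samples, it was 0.47 ± 0.09 (SE) with adjusted p = 0.0431 in limma.

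That fit without S1 passed 9 probe sets, all higher with added lactoferrin, and 3 of them had a name. Besides ACTN2 these were TMEM54, a membrane protein (0.57 without S1 and 0.38 in all samples), and FADS6, a relative of the fatty acid desaturases (0.33 and 0.19). They are named for that result after their values were seen. In S1, TMEM54 measured 10.8 and 10 in the samples with added lactoferrin, both at 1.2 g/L, against 11.4 and 11.2 in the controls. FADS6 measured 9.2 and 8.3 there, against 9.5 and 9.4 in the controls, so in S1 both genes lay on the other side of the comparison. Leaving out S2, S3, S4 or S5 in turn passed 0 probe sets. Of the fits without 1 sample none passed any, that without 1.2 g/L replicate 2 included.

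Other genes on the higher side had narrower ranges. FKBP1A, an immunophilin that binds the drugs FK506 and rapamycin, had a lowest, median and highest level of 9.1, 9.4 and 9.6 with added lactoferrin, against 8.9, 9.15 and 9.4 in controls, a difference of 0.20 ± 0.06 (SE; unadjusted p = 0.00142). STBD1, which anchors glycogen to membranes, measured 6.0, 6.7 and 7.0 against 5.8, 6.4 and 6.7 in controls (0.31 ± 0.09, unadjusted p = 0.00196). In both genes 20 or more of the 24 added-lactoferrin samples lay above the control median, and the groups overlapped. The smallest p on this side belonged to CXXC5, a zinc finger protein that dampens Wnt signalling, at 10.7, 11 and 11.5 with added lactoferrin against 10.6, 10.9 and 11.1 in controls (0.17 ± 0.05, unadjusted p = 0.000965). Its difference was 0.10 when arrays lacking Dap were left out.

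The remaining higher genes had differences between 0.11 and 0.22. They were the transcription factor gene WT1, the membrane protein gene MYADM, UBE2D4 of ubiquitin conjugation, SRPRA of the signal recognition particle receptor, the acyl-CoA thioesterase gene ACOT6, CACUL1, LOC100153150 and the lysosome-positioning gene BORCS6. WT1, at 4.7 to 5.5 with added lactoferrin and 4.6 to 5.1 in controls, was close to the filter on dim probe sets. ACOT6 was 0.13 without S3 and its brighter second probe set differed by -0.02, and LOC100153150 was 0.10 without the arrays lacking Dap.

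On the lower side, several genes belong to microglia, complement and antigen processing. CD55 encodes decay-accelerating factor, which protects cells from complement. It measured 4.6, 5.15 and 5.9 (lowest, median and highest) with added lactoferrin, against 5.3, 5.5 and 6.7 in controls, a difference of -0.44 ± 0.12 (SE; unadjusted p = 0.000919). It lay below the control median in 20 of 24 samples. A second probe set of CD55 differed by -0.10 (unadjusted p = 0.206). Both probe sets were close to the filter on dim probe sets, with means of 5.32 and 5.17. P2RY12, the ADP receptor of resting microglia, measured 9.2, 9.6 and 10 against 9.3, 9.85 and 10.6 in controls (-0.31 ± 0.09, unadjusted p = 0.00171), below the control median in 21 samples. PIK3CG, the gamma catalytic subunit of phosphoinositide 3-kinase used by leukocytes, measured 7.4, 7.8 and 8.1 against 7.5, 8.05 and 8.5 (-0.28 ± 0.08, unadjusted p = 0.000953), below it in 23. Control replicate 9 had the highest P2RY12 and PIK3CG levels of all samples. Without that array, control replicate 4 (highest oligodendrocyte mean of the controls) and 1.2 g/L replicate 2 together, P2RY12 differed by -0.19 and PIK3CG by -0.17.

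PSME1, an activator subunit of the proteasome that serves antigen processing, measured 8.2, 8.7 and 9.3 with added lactoferrin, against 8.6, 8.9 and 9.4 in controls (-0.24 ± 0.07, unadjusted p = 0.00133). Its difference by set code was between -0.05 and -0.32, below 0 in each of the 5. DCN encodes decorin, a matrix proteoglycan of connective tissue and meninges. It had the widest spread of the 24 genes, at 5.9, 6.8 and 7.9 against 6.6, 7.4 and 8.8 in controls (-0.78 ± 0.24, unadjusted p = 0.00222). Added-lactoferrin samples lay below the control median in 20 of 24, and 4 controls lay above every added-lactoferrin sample. The DCN difference was between -0.62 and -1.10 in S2 to S5 and 0.10 in S1. A list of matrix genes that includes DCN, added after values were seen, had a median difference of 0.00 over 12 genes. Among them LUM was at -0.21 and the collagen genes COL1A2 and COL3A1 at 0.05 and 0.04. The list mean shifted by -0.07 with the set block, and by set code from -0.26 in S3 to 0.19 in S1. Contamination with meninges was not tested beyond these values.

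The other lower genes differed by -0.14 to -0.24. They were the membrane protein gene TMEM59, CALCR (the calcitonin receptor by the array's annotation), DDO of D-aspartate breakdown, the imprinted transcription factor gene PLAGL1, MARCKS, a substrate of protein kinase C at membranes, the small GTPase gene RALB, and C14H10orf99. PLAGL1 lay below the control median in 23 of 24 samples and CALCR in 22. CALCR was -0.13 without the 3 arrays named above, and RALB was -0.08 without the arrays lacking Dap.

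**Figure D3:**
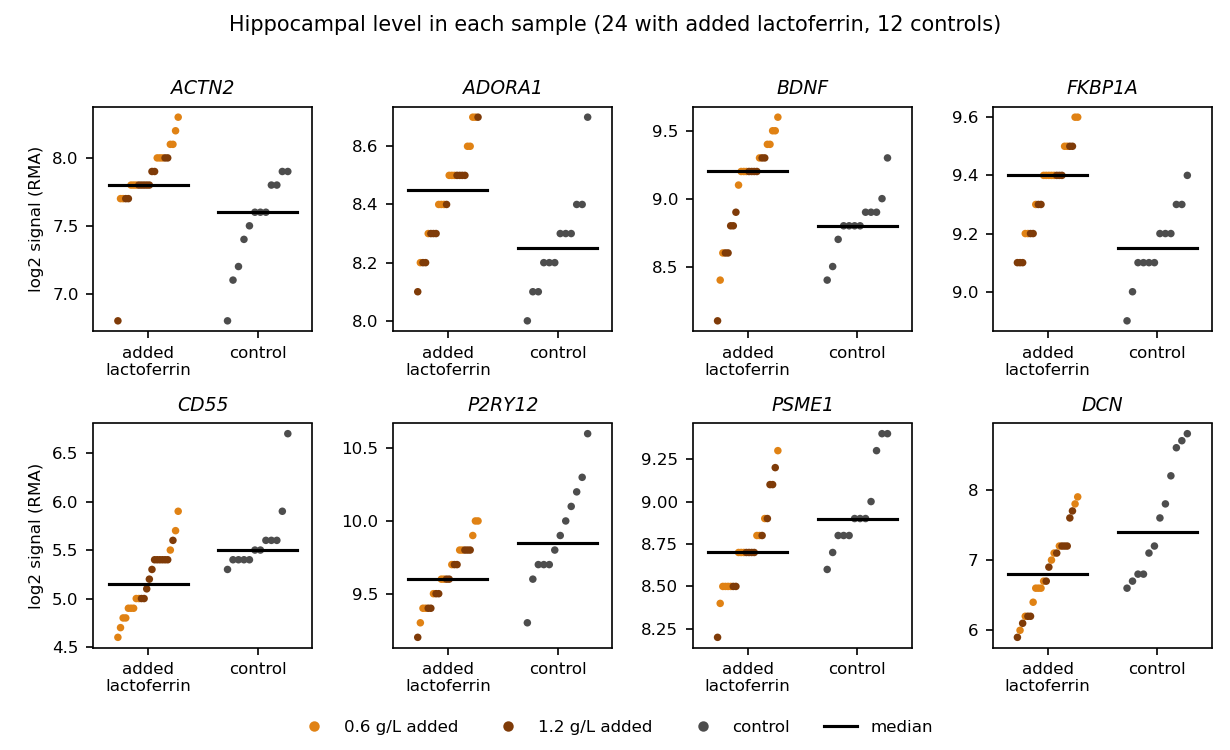
Log2 signal of 8 genes in each sample, added lactoferrin at left (orange 0.6 g/L, brown 1.2 g/L) and control at right, with black bars for medians. The groups overlap in every panel; the lowest ACTN2 point with added lactoferrin (6.8) is 1.2 g/L replicate 2, and the highest CD55 control (6.7) and the 4 highest DCN controls lie above all added-lactoferrin samples.

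Most genes of immunity and antigen presentation lay below 0, with no gene past the adjusted threshold. Over all 6034 genes, taken as 1 probe set each, the median difference was 0.00, 49.6% lay below 0, and at unadjusted p under 0.05 there were 2.35% higher and 2.98% lower. These shares are the background for each list count below. The lists were chosen with results of these samples known, so their direction is not independent evidence. Of 21 antiviral interferon-stimulated genes tested, 21 lay below 0, with a median of -0.33, and 6 had unadjusted p under 0.05, all lower. GBP1, an interferon-induced GTPase, had the lowest difference of all probe sets with a name, -0.88 ± 0.38 (SE; unadjusted p = 0.0271), at 5.0, 6.4 and 9.9 with added lactoferrin against 6.1, 7.25 and 9.8 in controls. EIF2AK2, the double-stranded RNA sensor PKR, measured 7.9, 8.6 and 10.1 against 8.3, 8.9 and 10.5 (-0.35 ± 0.15, unadjusted p = 0.0216). GBP2 differed by -0.33 ± 0.15 (unadjusted p = 0.0323).

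The mean of the antiviral list ran from 6.51 to 8.78 with a median of 6.83 in added-lactoferrin samples, and from 6.79 to 8.92 with a median of 7.16 in controls. Samples at the high end occurred in both groups, the highest being 1.2 g/L replicate 10 and control replicate 8, and 16 of 24 added-lactoferrin samples lay below the control median. By set code, the list shifted by -0.90 in S4, -0.36 in S3, -0.21 in S2, 0.01 in S1 and 0.10 in S5. Without S4 the median difference was -0.16 and none of the 21 had unadjusted p under 0.05. Fits without 1 sample gave 0 to 16 such genes, with 0 without control replicate 8 or without control replicate 11 and 16 without control replicate 12.

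The median of the antiviral list was -0.51 at 0.6 g/L and -0.15 at 1.2 g/L, each against the same controls. A measure of RNA integrity, the 3′ minus 5′ signal of actin, was 3.7 to 4.1 in 4 of the 0.6 g/L arrays (replicates 2, 4, 6 and 7). These lay above every 1.2 g/L array and every control (highest 3.3 in both). In the pooled added-lactoferrin group its median was 2.85, against 2.8 in controls, with a difference of 0.17 under the set block. Its part in the dose values and in the pooled differences of all genes was not tested. The contrast of 1.2 g/L with 0.6 g/L was fitted with the controls in the same set-code model. S1 held no 0.6 g/L sample, so its 1.2 g/L samples entered only through their difference from the S1 controls. In this contrast 6 of the 21 had unadjusted p under 0.05 with the higher dose above, where 2.48% of all probe sets did. None of the 21 did the other way. None passed the adjusted threshold.

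All 14 class I antigen presentation genes tested lay below 0 with a median of -0.13, and 4 had unadjusted p under 0.05. Apart from PSME1 these included TAP1, the peptide transporter, at 7.3, 7.9 and 9.1 with added lactoferrin against 7.8, 8.0 and 9.4 in controls (-0.33 ± 0.13, unadjusted p = 0.0159), although its 2 dimmer probe sets differed by 0.01 and 0.09, and PSME2, the partner of PSME1 (-0.22 ± 0.10, unadjusted p = 0.0306). B2M, the light chain of class I molecules, measured 11.6, 12.2 and 13.4 against 12.0, 12.3 and 13.7 in its brightest probe set (-0.30 ± 0.14, unadjusted p = 0.0354). The 8 other probe sets annotated as B2M ran from -0.25 to 0.08, so the gene's probe sets disagreed. The class I list shifted by -0.41 in S4 and 0.08 in S5, and its median was -0.07 without S4. Class II genes had a median of -0.09 over 11 genes, with 1 lower at unadjusted p under 0.05, the lysosomal protease gene CTSS (-0.33 ± 0.15, unadjusted p = 0.0330). CTSS differed by -0.21 without control replicate 9 and by -0.11 without S4, and without S4 the list median was 0.00.

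Complement genes had a median of -0.19 over 13 tested, 12 of them below 0, and 6 were lower at unadjusted p under 0.05 with none higher. Beside CD55 these included CD59, which blocks the membrane attack complex, at 8.8, 9.3 and 10 with added lactoferrin against 9.1, 9.5 and 9.9 in controls (-0.19 ± 0.07, unadjusted p = 0.0146). C1QA, a chain of the initiating C1q complex made by microglia, measured 5.4, 5.95 and 6.3 against 5.7, 6.05 and 6.8 (-0.20 ± 0.08, unadjusted p = 0.0191). The list mean lay below the control median in 18 of 24 added-lactoferrin samples. Without S4 the median was -0.06 and 1 gene was lower at unadjusted p under 0.05, and without control replicate 9 these were -0.10 and 2.

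**Figure D4:**
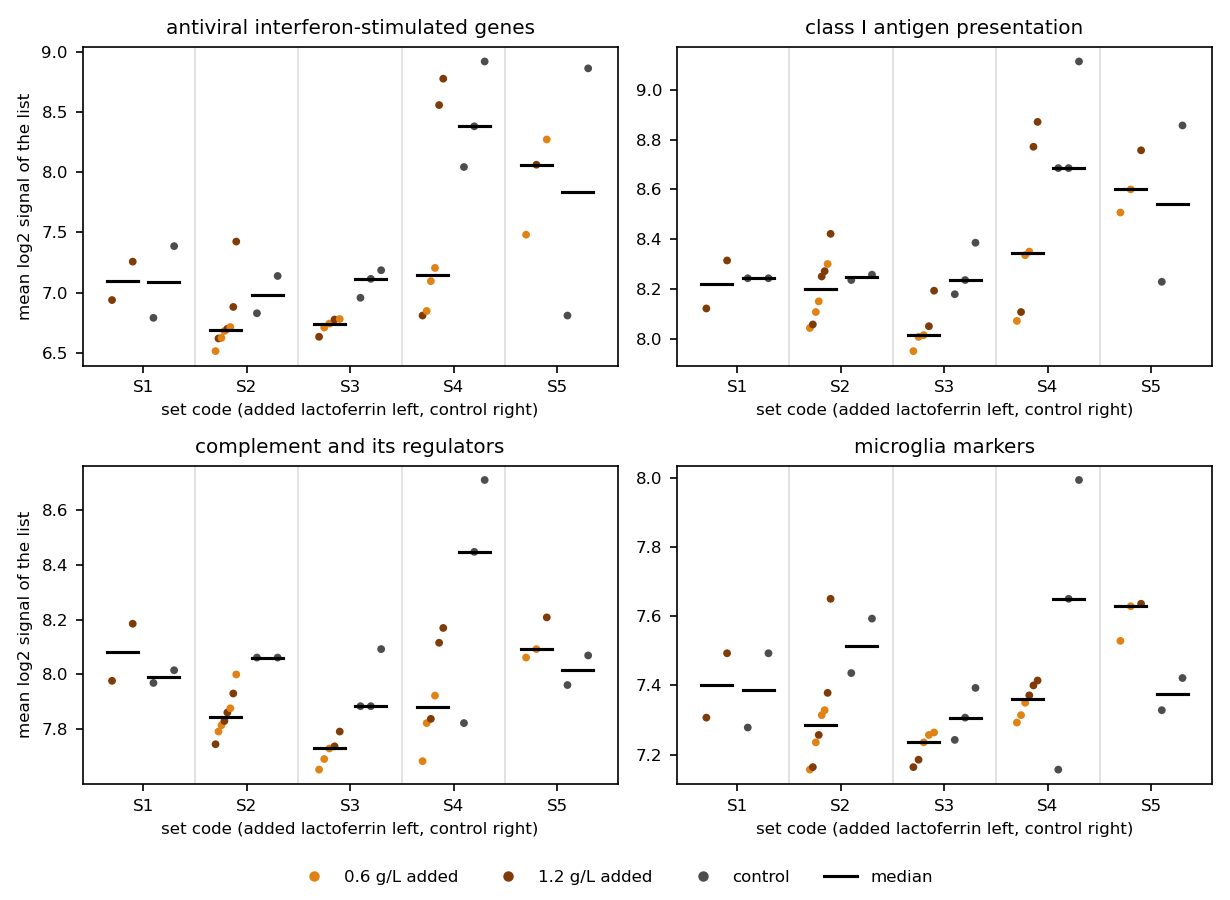
Mean log2 signal of 4 gene lists in each sample by set code, with added lactoferrin at left (orange 0.6 g/L, brown 1.2 g/L) and control at right of each set code, and black bars for medians. In S4 the antiviral list differed in mean by -0.90, in S1 by 0.01 and in S5 by 0.10.

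Microglia markers had a median of -0.14 over 14 genes, with 6 lower and 1 higher at unadjusted p under 0.05. IRF8, a transcription factor of microglia, measured 7.7, 8.0 and 8.2 with added lactoferrin against 7.8, 8.05 and 8.7 in controls (-0.16 ± 0.06, unadjusted p = 0.0176). P2RY12 and C1QA are members too, and C1QA and CTSS are shared with the lists above, so the counts overlap. The list mean had its highest value in control replicate 9 (7.99), and shifts by set code ran from -0.24 in S4 to 0.22 in S5. Without control replicate 9 the median was -0.09. Without that array, control replicate 4 and 1.2 g/L replicate 2 together it was -0.06, with 1 gene lower at unadjusted p under 0.05. Among cytokines, chemokines and pattern receptors the median was -0.03 over 15 genes and the 1 at unadjusted p under 0.05 was CASP1, the inflammasome protease, at 6.7, 7.1 and 7.9 against 7.0, 7.4 and 8.7 (-0.33 ± 0.11, unadjusted p = 0.00678). It was -0.20 without the 3 arrays.

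Of the 2 microglia markers above 0, CD86 (0.02) and GPNMB, the 1 at unadjusted p under 0.05 was GPNMB, a membrane glycoprotein of phagocytic microglia and pigment cells, which had the largest positive difference of all named probe sets and is described for that reason after its values were seen. The difference was 0.71 ± 0.31 (SE; unadjusted p = 0.0300). It rested on 4 samples with added lactoferrin, namely 0.6 g/L replicate 7 (8.6) and 1.2 g/L replicates 2 (8.1), 6 (8.5) and 12 (8.3). The other 20 lay between 5.4 and 6.1 with a median of 5.65, against 4.9 to 6.0 in controls. The 4 samples came from S1, S2, S3 and S5, and all 4 were on arrays lacking Dap. Dap was also absent in 0.6 g/L replicates 1 and 5, 1.2 g/L replicate 7 and control replicates 7, 8 and 10. GPNMB in those samples lay within the lower ranges just given. Without all arrays lacking Dap the difference was 0.17. The part of labelling in this pattern was not tested.

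Mature oligodendrocyte and myelin genes had a median of -0.10, and 12 of 15 lay below 0, with none at unadjusted p under 0.05. CNP, a myelin enzyme, was the farthest from 0, at 8.7, 9.65 and 11.1 with added lactoferrin against 9.3, 10 and 11 in controls (-0.36 ± 0.19, SE; unadjusted p = 0.0641), and its second probe set differed by -0.36 too. Of the 3 genes above 0, MBP, the major myelin protein, measured 14.4, 14.6 and 14.9 with added lactoferrin against 14.3, 14.6 and 14.7 in controls, a difference of 0.00 ± 0.05 (SE) in its brightest probe set. Dimmer MBP probe sets, with means of 9.40 and 7.47, differed by 0.09 ± 0.15 and 0.15 ± 0.18 (SE). The list median was 0.00 when control replicate 4, whose oligodendrocyte mean was the highest among controls, was left out, and without 1.2 g/L replicate 2 it was -0.17. Neuron markers had a median of 0.00 over 14 genes and astrocyte markers -0.05 over 10. The 5 hippocampal subfield markers all lay above 0 with a median of 0.12, which was 0.03 without control replicate 4 and 0.18 without 1.2 g/L replicate 2. GFAP differed by -0.01 ± 0.09 in its brightest probe set. Its dimmer probe sets differed by 0.09, 0.0036 and 0.12, the last with unadjusted p = 0.0468 in limma. GJA1, a gap junction protein of astrocytes, was the 1 astrocyte gene whose brightest probe set had unadjusted p under 0.05 (-0.18 ± 0.07, unadjusted p = 0.0167). Choroid plexus markers had a median of 0.02 over 8, and TTR, the transthyretin made by choroid plexus, ranged from 5.0 to 7.8 with added lactoferrin and from 5.1 to 8.2 in controls, too wide a spread for its difference of 0.09 ± 0.27 to be told from 0.

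Vascular genes had a median of 0.03 over 21 endothelial markers, with 3 higher and 1 lower at unadjusted p under 0.05. CD93, a receptor of endothelial cells, measured 8.8, 9.75 and 10 with added lactoferrin, against 8.8, 9.45 and 9.9 in controls (0.25 ± 0.09, unadjusted p = 0.00900). FLT1, a receptor for vascular endothelial growth factor, measured 4.8, 5.0 and 5.5 against 4.5, 4.8 and 5.2 (0.20 ± 0.07, unadjusted p = 0.0109), near the filter on dim probe sets. NOSTRIN, which traffics endothelial nitric oxide synthase, lay lower (-0.28 ± 0.11, unadjusted p = 0.0158). In CD93 the 0.6 g/L difference was 0.40 and the 1.2 g/L difference 0.11, and for NOSTRIN these were -0.47 and -0.10, so both genes lay farther from 0 at the lower dose. The unadjusted p between doses was 0.00403 for CD93 and 0.00262 for NOSTRIN.

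BDNF, the neurotrophin of hippocampal plasticity, measured 8.1, 9.2 and 9.6 with added lactoferrin, against 8.4, 8.8 and 9.3 in controls. The pooled difference was 0.24 ± 0.12 (SE) with a 95% interval from -0.01 to 0.48, unadjusted p = 0.0559 and adjusted p = 0.896 in limma, and 17 of 24 samples lay above the control median. Its set-code differences were 0.42 for S2, 0.38 for S4, 0.31 for S3, -0.02 for S5 and -0.20 for S1. The lowest BDNF value was that of 1.2 g/L replicate 2, and without that array the difference was 0.31. The BDNF difference was 0.19 without control replicate 4 and 0.17 with the oligodendrocyte mean as covariate. Genes of BDNF and TrkB signalling had a median of 0.00 over 19, with ITPR1, a calcium release channel, the 1 at unadjusted p under 0.05 (0.13 ± 0.06, unadjusted p = 0.0358). The transcription factor gene CREB1 differed by -0.06 ± 0.05. NTRK2, the gene of TrkB, was not measured under a single name.

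Growth factor genes and their receptors had a median of 0.07 over 18, with 4 higher and 1 lower at unadjusted p under 0.05. Beside FLT1 they included EGFR, the epidermal growth factor receptor, at 7.5, 7.8 and 8.1 with added lactoferrin against 7.5, 7.6 and 7.9 in controls (0.13 ± 0.05, unadjusted p = 0.0194), and IGF2R, which clears insulin-like growth factor II (0.13 ± 0.06, unadjusted p = 0.0300). Without S2 none of the 18 was higher at unadjusted p under 0.05 and the median was 0.03. Receptors for monoamines, acetylcholine, adenosine and peptides had a median of 0.06, and all 13 lay above 0. Most were dim: with a filter at the 50th percentile 4 remained, with a median of 0.11. Their list mean shifted by -0.06 in S5 and by 0.05 to 0.20 in the other set codes. ADORA1, the adenosine receptor that dampens transmitter release, measured 8.1, 8.45 and 8.7 against 8.0, 8.25 and 8.7 in controls (0.18 ± 0.06, unadjusted p = 0.00575), above the control median in 20 of 24, and its difference lay between 0.10 and 0.33 in each set code. The other 12 had unadjusted p of 0.05 or more. Postsynaptic scaffold genes had a median of 0.13 over 5 and presynaptic genes 0.06 over 7, with ACTN2 the 1 gene at unadjusted p under 0.05. The postsynaptic median was 0.05 without control replicate 4, 0.24 without 1.2 g/L replicate 2, 0.00 without S2 and 0.26 without S1, where 4 of the 5 had unadjusted p under 0.05. The presynaptic median was 0.01 without S2, and ran from 0.02 without 1.2 g/L replicate 1 to 0.12 without 1.2 g/L replicate 2.

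Lactoferrin, LTF, lay below the filter, at 4.56 ± 0.19 (SD, n = 24) with added lactoferrin and 4.60 ± 0.30 (SD, n = 12) in controls. TFRC, the transferrin receptor that rises when cells lack iron, measured 4.6, 4.9 and 5.3 against 4.7, 4.9 and 5.3 (0.00 ± 0.06, 95% interval from -0.12 to 0.12). These levels lay at the filter on dim probe sets (log2 4.917), so they say little on iron status. Iron-handling genes had a median of 0.00 over 17 with none at unadjusted p under 0.05. Genes of sialic acid metabolism had a median of -0.01 over 13, with 2 lower. ST8SIA4, a polysialyltransferase that modifies NCAM, measured 7.6, 8.0 and 8.6 against 7.7, 8.25 and 8.7 in controls (-0.18 ± 0.09, unadjusted p = 0.0464), below the control median in 21 of 24 samples, and was -0.10 without the arrays lacking Dap. ST3GAL3, a sialyltransferase of glycoproteins and gangliosides, differed by -0.23 ± 0.10 (unadjusted p = 0.0291) and by -0.10 without those arrays. GNE, which starts sialic acid synthesis, differed by 0.04 ± 0.06 and NCAM1 by -0.04 ± 0.07.

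Cytosolic ribosomal protein genes had a median of -0.05, and 52 of 55 lay below 0. The median was -0.03 without control replicate 4 or without S2. RPL7 was the 1 of them at unadjusted p under 0.05, at 12.2, 12.4 and 12.5 with added lactoferrin against 12.2, 12.5 and 12.8 in controls (-0.13 ± 0.04, unadjusted p = 0.00432). Oxidative phosphorylation genes had a median of -0.01 over 48, with 1 lower, SDHC (-0.08 ± 0.04, unadjusted p = 0.0312). Clock genes had a median of 0.02 over 9, with CSNK1D and USP2 higher (unadjusted p = 0.0177 and 0.0324), although a second CSNK1D probe set differed by -0.0033. Glycolysis and glycogen genes had a median of 0.02 over 21, with the glycogen synthase gene GYS1 higher (0.12 ± 0.04, unadjusted p = 0.00453). In immediate early genes (13), chaperones (23), glucocorticoid response genes (12), oligodendrocyte precursor (4), erythroid (4) and lymphocyte (4) markers and glutamate and GABA receptors (2), none had unadjusted p under 0.05, and their medians lay between -0.07 and 0.03. Lipid synthesis genes had a median of -0.02 over 17, with FADS6 higher (unadjusted p = 0.0426).

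**Figure D5:**
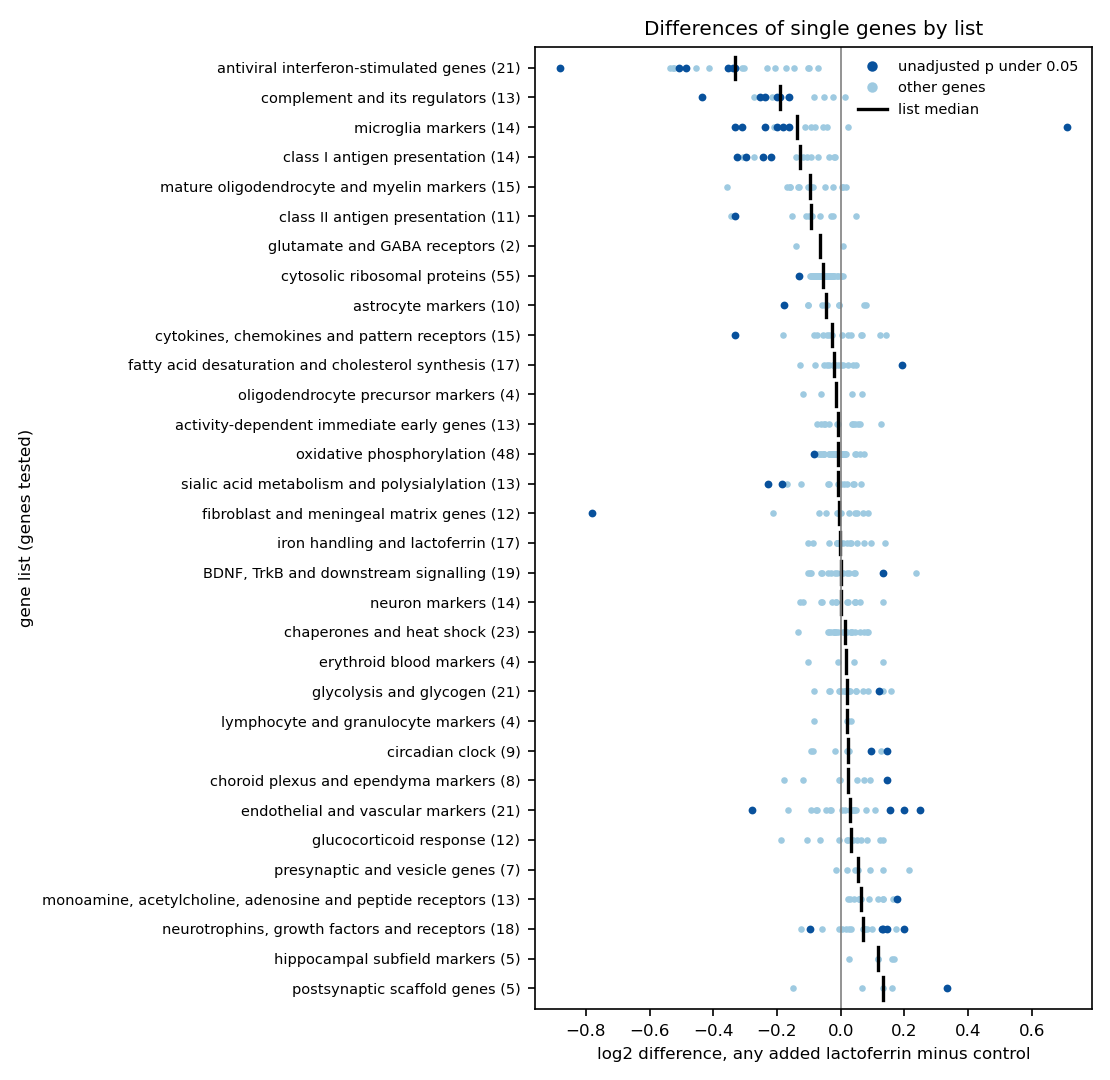
Log2 difference, any added lactoferrin minus control, of each gene in 32 lists, with the number of genes tested in parentheses, dark points for unadjusted p under 0.05 and black bars for list medians. Medians run from -0.33 for antiviral interferon-stimulated genes to 0.13 for postsynaptic scaffold genes (0.05 without control replicate 4), and the point farthest to the right is GPNMB (0.71).

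The doses were also set against each other. No probe set passed between 1.2 g/L and 0.6 g/L (smallest adjusted p = 0.285 in limma), and 1076 had unadjusted p under 0.05 (5.98%), 447 with the higher dose above (2.48%) and 629 below (3.49%). Against control, 1248 probe sets had unadjusted p under 0.05 at 0.6 g/L (6.93%), 680 higher (3.78%) and 568 lower (3.15%). At 1.2 g/L there were 889 (4.94%), 499 higher (2.77%) and 390 lower (2.17%), and no probe set passed the adjusted threshold at either dose (smallest adjusted p = 0.153 at 0.6 g/L and 0.906 at 1.2 g/L). In the test of whether the added-lactoferrin difference varied with set code, 1 probe set passed (0.00555%) and 1309 had unadjusted p under 0.05 (7.27%). The doses were unevenly spread over the set codes, with only 1.2 g/L in S1, so that test cannot tell dose from set code. The 5 named genes of smallest unadjusted p between 1.2 g/L and 0.6 g/L lay on opposite sides of 0 at the 2 doses, with pooled differences from -0.17 for CLIC2 to 0.12 for LOXL1. They were picked by the gap between doses, and that choice itself favours opposite sides of the shared controls. C9H1orf21 differed by -0.08 at 1.2 g/L and 0.18 at 0.6 g/L from control, LOXL1, a collagen crosslinking enzyme, by -0.10 and 0.35, ZNF655 by 0.09 and -0.16, GSE1 by -0.07 and 0.19, and CLIC2, an intracellular chloride channel protein, by 0.05 and -0.40.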

How the data were processed

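Probe-set values were deposited by the authors on the log2 scale to 1 decimal, 1 array per sample. The submitters' processing notes name RMA and Affymetrix Expression Console 1.1. Probe annotation gave exactly 1 symbol to 10069 of 23999 probe sets, several to 198 and none to 13732, and 9961 of those names were matched to RefSeq by gene ID. Array controls (124) were left out, as were dim probe sets, those whose mean over samples was under log2 4.917 (the 25th percentile).

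Differences were fitted in R 4.3.3 with limma 3.58.1 (lmFit and eBayes, two-sided, Benjamini-Hochberg over 18006 probe sets), with set code as a fixed block over 36 samples. Doses were fitted as 3 groups, and the set-code dependence by an interaction F test. Lists (32, 1 added after values were seen) took the brightest probe set of each gene and were described without a test. The 24 genes were the 12 higher and 12 lower of smallest unadjusted p, since fewer than 10 passed. Up to 3 genes of smallest p per list and a set of preset genes were added. The members, lists and rules were chosen with earlier results of these data known. The model was tested on simulated data. Figures used Python 3.11.15 and matplotlib 3.10.9. No arrays were identical.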

Additional observations from a re-analysis of the deposited data

Results flagged for a closer look

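A probe set with no gene name differed between set codes in how added lactoferrin compared with control (limma F test of the interaction, adjusted p = 0.0301, the 1 of 18006 to pass). Its added-minus-control difference was -0.70 for S1 and between 0.10 and 0.59 for the other set codes, with 0.16 over all samples. Its lowest value with added lactoferrin (7.8) was that of 1.2 g/L replicate 2 in S1, and its lowest control (8.0) that of control replicate 4 in S2. At unadjusted p under 0.05 there were 1309 such probe sets (7.27%). The part of those arrays in this pattern was not tested beyond the fits given below. Both added-lactoferrin samples of S1 were at 1.2 g/L, so dose and set code cannot be told apart in this pattern.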

How the results depend on the processing

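Replicate numbers were not taken to pair samples. Among 36 same-numbered pairs of samples, 8 had deviations from their group means correlated above 0.1. Differently numbered pairs were not compared and the set code was not removed, so this check cannot tell whether the numbers pair samples. With the replicate block added to the set block, 0 probe sets passed for added lactoferrin and 788 had unadjusted p under 0.05, and 1785 did between the doses. Ribosomal protein genes lower at unadjusted p under 0.05 numbered 8 in that fit. Counts at adjusted p 0.05 for added lactoferrin minus control were 9 without S1 and 0 in the other settings. For 0.6 g/L they were 4 without S1 and 1 without 3 arrays together (1.2 g/L replicate 2, lowest in mean correlation, and control replicates 4 and 9, the controls with the highest oligodendrocyte and microglia means), and between doses 1 with a choroid plexus covariate. Counts at unadjusted p under 0.05 were, for added lactoferrin, 634 with a filter at the 50th percentile, 337 with 1 probe set per gene, 1597 without S1 and 461 without S2. For 0.6 g/L there were 424 with 1 probe set per gene. For 1.2 g/L there were 1351 with no filter, 469 with the stricter filter and 276 with 1 probe set per gene. Between doses there were 715 and 292 with those last 2 choices, 2560 without S2 and 554 without S3. Fewer probe sets were tested under the stricter filter and with 1 per gene. For the rest the cause was not tested.

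By set code, the count at adjusted p 0.05 was 2 with the stricter filter, without S5 and in arrays with the spike-in control, 15 without S4, 37 without the 3 arrays, 32 with the oligodendrocyte mean as covariate, and 0 with centring, array weights, 1 probe set per gene, the spike-in as second block, or without S1, S2 or S3. At unadjusted p it was 633 with array weights, 456 with 1 probe set per gene and 851 without S1.

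Leaving out 1 sample gave 0 adjusted calls for added lactoferrin and 739 to 1499 at unadjusted p, the highest without 1.2 g/L replicate 2 and the lowest without control replicate 3. For 0.6 g/L the ranges were 0 to 1 and 931 to 1877, for 1.2 g/L 0 to 0 and 599 to 1312, between doses 0 to 1 and 708 to 1915, and by set code 0 to 401 and 910 to 3171, both highest without 1.2 g/L replicate 1.

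Of the named genes, these changed sign, with differences over all samples from -0.04 for NCAM1 to 0.12 for LOXL1. TFRC was 0.0083 without the set block or with a replicate block in its place, 0.0073 with a random block, 0.033 without S4, 0.026 without S5 and 0.028 without the 3 arrays, and -0.028 to 0.026 without 1 sample. MBP was -0.0083 and -0.0083 in the first 2 of these, -0.0048 with both blocks, -0.0061 with a random block, -0.00096 without S2, -0.016 without S5 and -0.033 in arrays with the spike-in, and -0.023 to 0.030 without 1 sample. GFAP was 0.0083 after quantile normalization, 0.043, 0.023 and 0.057 without S2, S3 and S4, 0.046 with the oligodendrocyte covariate, and -0.078 to 0.058 without 1 sample. TTR was -0.067 without S1, -0.11 without the 3 arrays and -0.039 to 0.24 without 1 sample. LOXL1 was -0.0055 without S2, NCAM1 0.00057 without S3 and 0.025 in arrays with the spike-in, and ZNF655 0.056 without S4 and -0.050 to 0.0021 without 1 sample. The 36 arrays limit what could be detected, and the basal lactoferrin of the controls is unquantified.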
